A study of Mus musculus with 6 samples.

Results

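The liver-made plasma and hepatocyte genes are 53 mouse genes that hepatocytes, the main cells of the liver, express at high level. They were taken by symbol from the 56748 genes of a table of brain RNA, and each of the 53 matched 1 row. They were selected on their high level in 1 brain library, day 3 replicate 2, against the other libraries. Their excess in that library is therefore a description and was not tested. The series measured polyadenylated RNA of homogenized brain tissue. All mice had received implanted MCF10DCIS cells that carry CD63-NLuc. MCF10DCIS is a human breast line that models ductal carcinoma in situ, and CD63-NLuc joins CD63, a vesicle membrane protein, to the luciferase NanoLuc. Brain was taken 28 days after implantation (3 libraries) or 3 days after it (3 libraries), and all 6 libraries came from implanted mice. Strain, sex and age are not given in the labels. Nor do they say whether each library is a different mouse, so a p-value here reflects only how far these samples scatter, and some of that scatter may be technical.

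Hepatocytes secrete most proteins of blood plasma: carriers such as albumin, clotting factors, apolipoproteins and protease inhibitors. They also hold the urea cycle, most cytochrome P450 enzymes and much of the enzyme set for making glucose and breaking down amino acids. A few regulators that bind DNA together, among them HNF1 and C/EBP, drive these genes in liver. Inflammation shifts hepatocyte output towards acute phase proteins such as serum amyloid A and haptoglobin. Neurons and glia are not known as a main source of these proteins, although some of the genes, such as Ass1 and Rbp4, are used in many tissues.

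The stretches before the start sites of 5 members are shown. The 53 genes were high together in 1 library, and Ass1 departed from the others in the remaining libraries. Alb, Serpina1a, Fga and Fabp1 all come from the 12 of 40 members with GTTAAT in the 250 bases before the start. Most of the 40 lack it, so its absence is not particular to Ass1. A link of these letters to the levels was not tested. Each is the 120 bases up to the start site on the gene's own strand, 5′ to 3′, from RefSeq's GRCm38.p6, a build older than that of the deposited table. Capitals mark GTTAAT on either strand (a half-site of HNF1), TTGCNNAA on either strand (a C/EBP form) or TATAAA on the gene's strand.
Alb, chr5:90460750-90460869, plus strand: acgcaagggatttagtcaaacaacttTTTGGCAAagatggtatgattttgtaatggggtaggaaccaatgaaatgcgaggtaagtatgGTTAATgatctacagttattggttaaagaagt
Serpina1a, chr12:103863620-103863739, minus strand: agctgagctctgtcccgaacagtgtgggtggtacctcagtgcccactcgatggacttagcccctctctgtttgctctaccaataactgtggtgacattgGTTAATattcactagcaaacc
Fga, chr3:83026033-83026152, plus strand: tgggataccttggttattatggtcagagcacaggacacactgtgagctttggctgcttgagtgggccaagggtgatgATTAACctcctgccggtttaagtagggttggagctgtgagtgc
Fabp1, chr6:71199759-71199878, plus strand: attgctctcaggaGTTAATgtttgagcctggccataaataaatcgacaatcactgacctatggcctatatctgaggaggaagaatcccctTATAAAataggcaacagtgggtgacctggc
Ass1, chr2:31470150-31470269, plus strand: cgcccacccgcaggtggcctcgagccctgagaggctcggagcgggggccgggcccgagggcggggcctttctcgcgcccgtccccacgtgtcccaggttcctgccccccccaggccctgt

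In the 250 bases before the start, GTTAAT was found for 12 of the 40 members in the promoter table, against 7.49% of 27025 promoter genes. TTGCNNAA was found for 14 of the 40 members, against 10.8% of all, and TATAAA for 9, against 8.94%. The full HNF1 palindrome, which contains the half-site on both strands, was found for 0 members, against 0.0111% of all. The HNF4 form CAAAGTCCA on either strand was found for 1 member, Cyp3a11, against 0.451%. A match is a run of letters and was not tested as a binding site.

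Recovered reads ran from 11958137 to 16059196 per library. Normalized counts are those reads divided by the library's size factor. The 9 neuron and glia markers checked against the brain label, among them Snap25 and Mbp, summed to between 138942 and 175187 normalized counts per library, and 0 of them had 0 reads in any library. Day 3 replicate 2 stood apart in the liver-made genes, so results that rest on it are given with and without it. Red blood cell markers were also highest there, at 5206 normalized counts in sum, against 1602 to 3821 in the other 5 libraries. In bulk tissue, a different number of cells of a type and a different amount of RNA per cell cannot be told apart.

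The 53 genes took 1.25% of all reads in day 3 replicate 2 (95% Clopper-Pearson interval 1.24% to 1.25%, which covers counting error alone). They took 0.0254%, 0.0269% and 0.0176% in day 28 replicates 1 to 3, and 0.00402% and 0.0174% in day 3 replicates 1 and 3. Day 3 replicate 1 was thus the lowest library and the other 4 lay between it and day 3 replicate 2. Every one of the 53 was highest in day 3 replicate 2, which is what selected them, and 47 were more than 10-fold above the next library. Just inside that fold were Rbp4 (10.2-fold) and Itih2 (11.2-fold), and below it were G6pc (7.79-fold), Ass1 (5.97-fold), Saa1 (4.78-fold), Vnn1 (3.45-fold) and Saa2 (1.81-fold). Mup20, with 1 read in all, has no fold. By rank, Alb was gene number 8 of the whole table in day 3 replicate 2. It was number 3279, 2927 and 5287 in day 28 replicates 1 to 3, and number 14507 and 6023 in day 3 replicates 1 and 3.

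**Figure D1:**
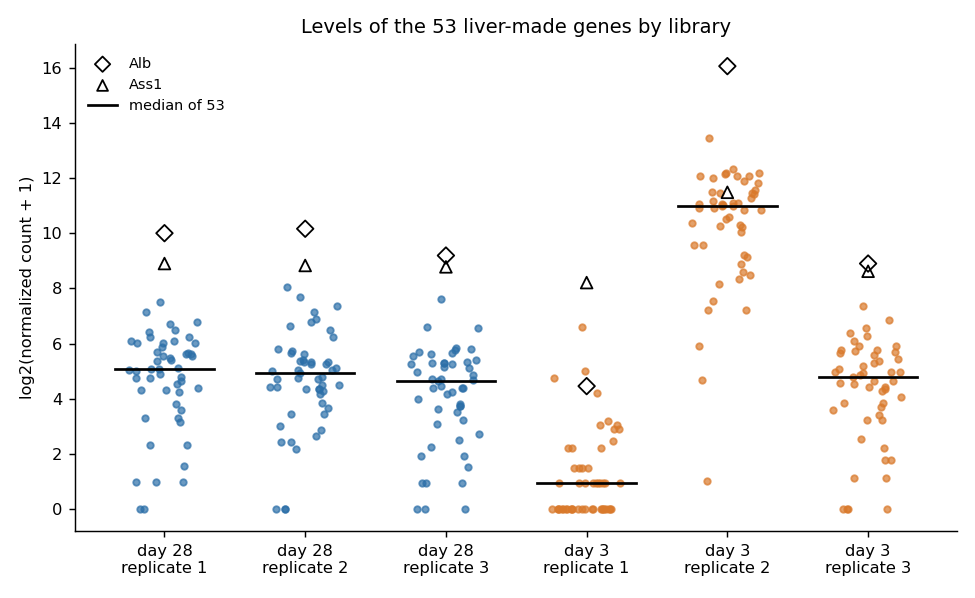
Levels of the 53 genes on the log2(normalized count + 1) axis, by library, day 28 on the left (blue) and day 3 on the right (orange). Each point is a gene, bars are medians over the 53, and Alb (diamond) and Ass1 (triangle) are marked; day 3 replicate 2 lies above and day 3 replicate 1 below the other libraries, while Ass1 keeps a like level in all but day 3 replicate 2.

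Plasma carriers had the highest summed level of the role groups in every library but day 3 replicate 1, where the urea cycle genes did. Alb, the main carrier and osmotic protein of plasma, had 1023, 1276 and 614 reads in day 28 replicates 1 to 3, against 23, 65795 and 392 reads in day 3 replicates 1 to 3. The day 28 libraries lay within the wide range of the day 3 libraries, so the groups overlapped. Ahsg, which encodes fetuin-A, a binder of calcium mineral, had 142, 297 and 102 reads at day 28, against 4, 10954 and 67 reads at day 3. Hpx, the heme scavenger, had 48, 42 and 42 reads at day 28, against 9, 4184 and 94 at day 3. The vitamin D carrier gene Gc had 0 reads in day 3 replicate 1 and 4993 in replicate 2, and Ambp, which yields a heme-binding protein and the inhibitor bikunin, had 0 and 2058. Rbp4, the retinol carrier, was far more even, with 182, 227 and 205 reads at day 28, against 104, 2007 and 135 at day 3. Orm1, an acute phase glycoprotein, had 19, 5 and 1 reads at day 28, against 0, 744 and 11 at day 3.

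Clotting and fibrinolysis genes were likewise highest in day 3 replicate 2 and lowest in day 3 replicate 1 in sum, while the other 4 libraries stood in another order than for Alb. Fgb, the fibrinogen beta chain, had 64, 62 and 54 reads at day 28, against 1, 4180 and 44 at day 3. The other fibrinogen chains, Fga and Fgg, had 3668 and 2741 reads in day 3 replicate 2, and between 12 and 51 in each day 28 library. F2 (prothrombin), Plg (plasminogen), Kng1 (kininogen) and Serpinc1 (antithrombin) had from 1512 to 2121 reads in day 3 replicate 2 and from 18 to 42 in the day 28 libraries. In day 3 replicate 1 the 7 clotting genes had between 0 and 2 reads each. As a group they stood in the day 28 libraries at 1.37%, 1.16% and 0.851% of their summed normalized count in day 3 replicate 2, and in day 3 replicates 1 and 3 at 0.0394% and 1.05%.

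The apolipoproteins, which carry lipids in plasma, stood at a larger percentage of their day 3 replicate 2 level at day 28 than the clotting genes did. Apoa1, the main protein of high-density lipoprotein, had 111, 186 and 98 reads at day 28, against 7, 4493 and 25 at day 3. Their summed level in the day 28 libraries was 2.67%, 3.19% and 1.83% of that in day 3 replicate 2, against 0.182% and 1.02% in day 3 replicates 1 and 3. Apoa2, the second protein of that particle, had 85, 109 and 51 reads at day 28, against 0, 2822 and 22 at day 3. Apob, the scaffold of very-low-density lipoprotein, had 20, 24 and 6 reads at day 28, against 1, 1780 and 13 at day 3. Apoc1, which macrophages and glia also express, had 90, 133 and 60 reads at day 28, against 19, 2111 and 33 at day 3. Apoc3, an inhibitor of lipoprotein lipase, Apoc4 and Apoh, a phospholipid binder, had 1018, 181 and 1279 reads in day 3 replicate 2, and from 4 to 39 in the day 28 libraries.

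Protease inhibitor genes had between 540 and 4452 reads in day 3 replicate 2. Serpina3k, an inhibitor of the trypsin and kallikrein kind, had 57, 46 and 40 reads at day 28, against 0, 4452 and 76 at day 3. Pzp, an alpha-macroglobulin, had 74, 55 and 40 reads at day 28, against 4, 3959 and 55 at day 3. The alpha-1-antitrypsin copies Serpina1a, Serpina1b and Serpina1c had 1865, 2975 and 1975 reads in day 3 replicate 2, but these 3 values are uncertain between copies. Of the 50-base windows of the longest Serpina1c transcript, 74.2% also occur in transcripts of other genes, and for Serpina1a and Serpina1b the shares are 67.4% and 35.8%. In the same count 35 of the 53 members had no window in common with another gene, among them Alb. Itih1 and Itih4, heavy chains of the inter-alpha-trypsin inhibitor family, had 540 and 1175 reads in day 3 replicate 2, and Itih1 had 0 reads in day 3 replicates 1 and 3. Itih2, another chain, was the most even of the family, with 68, 35 and 48 reads at day 28, against 28, 738 and 25 at day 3.

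Among the inducible acute phase and iron genes, Saa1 and Saa2 departed from the order of libraries seen for Alb. Saa1, a serum amyloid A gene, had 1, 4 and 8 reads at day 28, against 0, 277 and 49 at day 3. Saa2, its close copy, had 1, 0 and 0 reads at day 28, against 0, 58 and 27 at day 3. Both were relatively high in day 3 replicate 3, where Saa1 reached 20.9% and Saa2 55.1% of their level in day 3 replicate 2, while Alb reached 0.705%. Saa1 and Saa2 share 13.2% of the windows of Saa1, so some reads may be split between them. In day 3 replicate 3 the kidney gene Kap had 13 reads, against 0 in each of the other 5 libraries. The kidney gene Miox had 6 there against 0 each, and Slc12a1 had 4 against 0 or 1. Not all of the 8 kidney markers went this way. Slc22a6 had 68 reads in day 28 replicate 1 against 40 in day 3 replicate 3. Slc34a1 had 5 in day 3 replicate 1 against 3 in replicate 3. Lrp2 had 3 to 11 reads in every library, and Umod and Aqp2 had 0 in all 6. The part of these genes in the Saa1 and Saa2 values was not tested. Hp, haptoglobin, which binds free haemoglobin and which neutrophils also store, had 64, 54 and 40 reads at day 28, against 34, 4518 and 62 at day 3. Its 34 reads in day 3 replicate 1, where Alb had 23, placed it next after Ass1 and Rbp4 among the members of that library. Hamp, the iron hormone hepcidin, had 13, 6 and 11 reads at day 28, against 1, 316 and 8 at day 3. In the same samples Lcn2, an acute phase gene of reactive astrocytes, had 4, 7 and 11 reads at day 28, against 153, 215 and 37 at day 3, so it was high in day 3 replicate 1 as well. The 7 reactive glia and acute phase markers summed to 2440, 2677 and 2526 normalized counts at day 28, against 9493, 12281 and 3472 at day 3. In day 3 replicate 2, C3 made up 6910 of that sum, against 53.1 to 404 in the other 5 libraries. Of the 7 markers, 6 were highest in day 3 replicate 2, but only C3 was more than 10-fold above the next library. Gfap was not highest there: it made up 7777 in day 3 replicate 1, against 2632 and 2593 in day 3 replicates 2 and 3. The sum in day 3 replicate 2 is thus largely C3 and does not rank the libraries by Gfap. The part of these markers in the values of the members was not tested.

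The 2 major urinary protein genes, pheromone carriers made in liver, differed. Mup3 had 65, 38 and 44 reads at day 28, against 8, 3531 and 35 at day 3. Mup20, a form known as male-biased, had 1 read in day 3 replicate 2 and 0 in the other libraries, where a count of 0 allows up to 3 reads. Of Mup20's windows 50.5% occur in other genes, so its count may be split with copies.

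Cytochrome P450 genes and the other enzymes were likewise highest in day 3 replicate 2. Cyp2e1, which oxidizes ethanol, had 68, 157 and 57 reads at day 28, against 1, 4175 and 44 at day 3. Cyp3a11, a drug-oxidizing form, had 26, 11 and 27 reads at day 28, against 0, 2259 and 18 at day 3, so it was low against Cyp2e1 in day 28 replicate 2. Cyp1a2 and Cyp2c29 had 573 and 378 reads in day 3 replicate 2, and Cyp7a1, the rate-limiting enzyme of bile acid synthesis, 142. Cyp7a1 had 9, 0 and 1 reads at day 28, which does not follow the order of Alb in those libraries.

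Of the urea cycle genes, Ass1 stood apart. Ass1, which makes argininosuccinate on the way to arginine, had 478, 509 and 462 reads at day 28, against 322, 2773 and 322 at day 3. Its normalized counts averaged 457 ± 19.7 at day 28 and 1179 ± 1449 at day 3 (SD, n = 3 each), and the day 3 mean rests on replicate 2. Of its windows 55.3% also occur in a single other gene, Gm5424. Cps1, the first enzyme of the cycle, had 50, 44 and 36 reads at day 28, against 0, 2394 and 25 at day 3. Arg1 and Otc, the other enzymes of the list, had 1227 and 352 reads in day 3 replicate 2, and Otc had 4, 13 and 2 at day 28.

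The remaining enzymes and intracellular proteins showed the same high library. Fabp1, the liver fatty acid binding protein, had 75, 99 and 58 reads at day 28, against 0, 2744 and 20 at day 3. Adh1, an alcohol dehydrogenase, had 40, 36 and 25 reads at day 28, against 1, 1203 and 4 at day 3. Uox, urate oxidase, had 46, 44 and 37 reads at day 28, against 1, 1419 and 7 at day 3. The amino acid enzymes Tat and Hpd, which act in turn on tyrosine, had 2686 and 1880 reads in day 3 replicate 2, and Pck1, a key enzyme of glucose synthesis, 1969. G6pc, the last enzyme of glucose release, had 1, 21 and 3 reads at day 28, against 1, 142 and 1 at day 3, so that day 28 replicate 2 was high for it. Vnn1, a pantetheinase, had 0, 8 and 3 reads at day 28, against 0, 24 and 0 at day 3. Ttc36 had 460 reads in day 3 replicate 2 and 9, 22 and 13 at day 28.

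Division by transcript length allows a rough comparison of levels between genes. The longest annotated transcript was used, and which transcript was expressed was not measured. Per kilobase of the longest annotated transcript, the level in day 3 replicate 2 was 33259 normalized counts for Alb, 7589 for Ahsg, 5601 for Apoa2, 5102 for Fabp1 and 4463 for Apoa1. The 4 lowest were G6pc, Cyp7a1, Vnn1 and Mup20, of which G6pc had 60.5 and Mup20 1.11.

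The ratios between members were compared across the libraries, as a description. A gene's level in a library was first set against its own level in day 3 replicate 2. The median over the 53 genes was 1.74%, 1.68% and 1.10% in day 28 replicates 1 to 3, and 0.0243% and 1.13% in day 3 replicates 1 and 3. The interquartile range over the genes was 1.31% to 2.40% in day 28 replicate 1, 1.17% to 2.69% in replicate 2 and 0.826% to 1.95% in replicate 3. Alb itself stood at 1.51%, 1.68% and 0.860% in the day 28 libraries, and at 0.0311% and 0.705% in day 3 replicates 1 and 3. Across the 53 genes, Pearson's r of the log2 values with day 3 replicate 2 was 0.88, 0.82 and 0.79 for the day 28 libraries, and 0.38 and 0.76 for day 3 replicates 1 and 3. Between the day 28 libraries it was 0.87 to 0.90. These values describe genes, which are not independent replicates, and low genes carry large counting error.

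**Figure D2:**
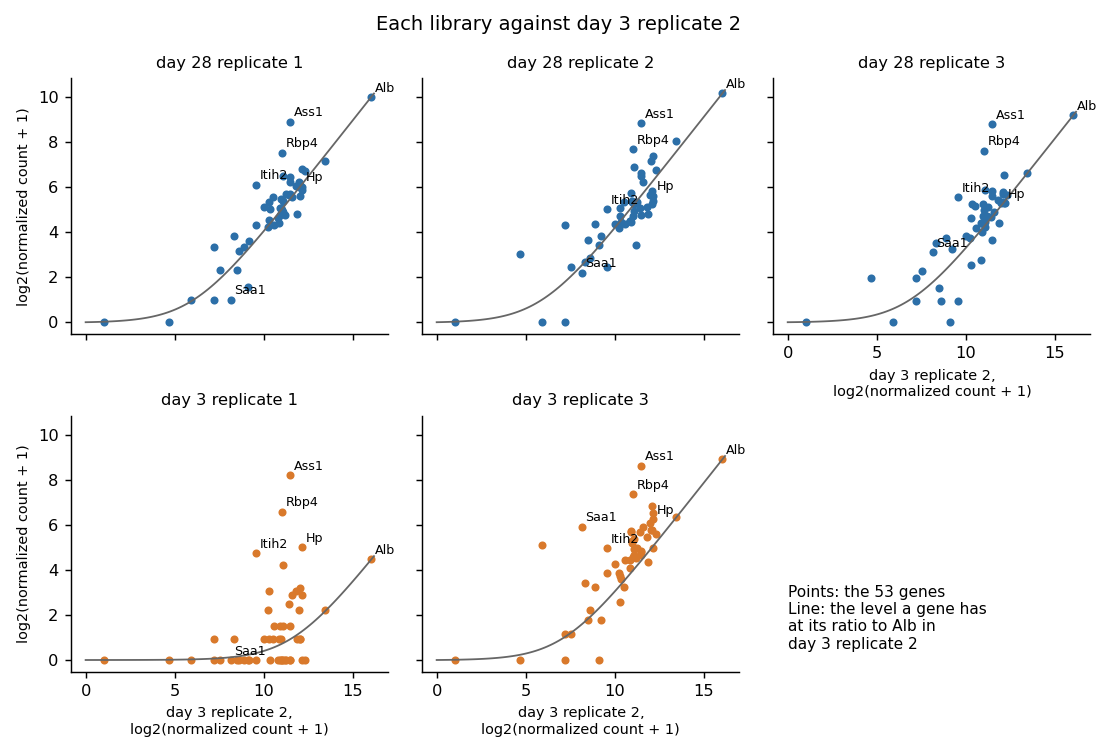
Normalized counts of the 53 genes in each library (y, log2 of count + 1) against day 3 replicate 2 (x, same scale), with day 28 panels on top. The line is the level at which a gene keeps its day 3 replicate 2 ratio to Alb; most points of the day 28 libraries lie near it, Ass1, Rbp4 and Itih2 lie above it in all 5 panels, and Saa1 lies far above it in day 3 replicate 3.

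Reads per 1000 Alb reads were then given an exact 95% interval and set against the ratio in day 3 replicate 2. These intervals cover counting error in single libraries and compare libraries, not conditions. Of 52 members other than Alb, 33, 22 and 28 had an interval that held the day 3 replicate 2 ratio in day 28 replicates 1 to 3. In day 3 replicates 1 and 3 the number was 40 and 26, with few reads behind the 40. With 52 intervals per library, some miss the ratio by counting error alone. In the 4 libraries besides day 3 replicates 1 and 2, 8 members held it throughout. Of these, Serpinc1 had 17 to 24 reads in these libraries and Kng1 19 to 42, while Apoc4, Cyp2c29 and Mup20 had at most 8, too few for their intervals to say much.

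The 4 members above the ratio in all 5 libraries were Ass1, Rbp4, Itih2 and Apoc1. Ass1 had 467, 399 and 752 reads per 1000 Alb reads at day 28, against 14000 in day 3 replicate 1, 42.1 in replicate 2 and 821 in replicate 3. At the day 3 replicate 2 ratio, Ass1 would have had 43.1, 53.8 and 25.9 reads in the day 28 libraries, where 478, 509 and 462 were seen. Rbp4 had 178, 178 and 334 reads per 1000 Alb reads at day 28, against 4522, 30.5 and 344 at day 3. Markers of choroid plexus, a tissue that handles retinol, summed to 8109, 8049 and 11865 normalized counts at day 28. At day 3 the sums were 6938, 14963 and 8124, with 0 of 8 markers at 0 reads in any library. Ttr alone made up 7360, 7551 and 11029 at day 28, and 6230, 14114 and 7469 at day 3. Of the 8 markers, 3 were highest in day 3 replicate 2. The part of these markers in the Rbp4 values was not tested.

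Other members departed from the ratio in some libraries. Apoa1 was above it in all 3 day 28 libraries, at 109, 146 and 160 reads per 1000 Alb reads, against 304, 68.3 and 63.8 in day 3 replicates 1 to 3. Apoa2, Fabp1, Adh1 and Uox were also above it in each day 28 library, as Apoc1 was. Fga was below the ratio in all 3 day 28 libraries, at 26.4, 23.5 and 34.2 reads per 1000 Alb reads, against 55.7 in day 3 replicate 2. Hpx was below it in day 28 replicates 1 and 2, at 46.9 and 32.9, against 63.6 in day 3 replicate 2 and 240 in day 3 replicate 3. In day 28 replicate 2 Hp, Orm1, Serpina3k, Pzp, Mup3, Tat, Hpd and Cyp3a11 were below it as well, 12 members in all with Fgb, Fgg, Fga and Hpx, while 18 were above it, among them Ahsg, Cyp2e1 and G6pc. G6pc had 16.5 reads per 1000 Alb reads there, against 2.16 in day 3 replicate 2. In day 3 replicate 3, 26 members were above the ratio and 0 below, with Hpx, Serpina3k and Hp the most read after Ass1 and Rbp4. Saa1 had 125 reads per 1000 Alb reads there, against 4.21 in day 3 replicate 2. The intervals were not adjusted for their number, and some of these departures were narrow: Hpd in day 28 replicate 2 had an upper limit of 27.2, against 28.6 in day 3 replicate 2.

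**Figure D3:**
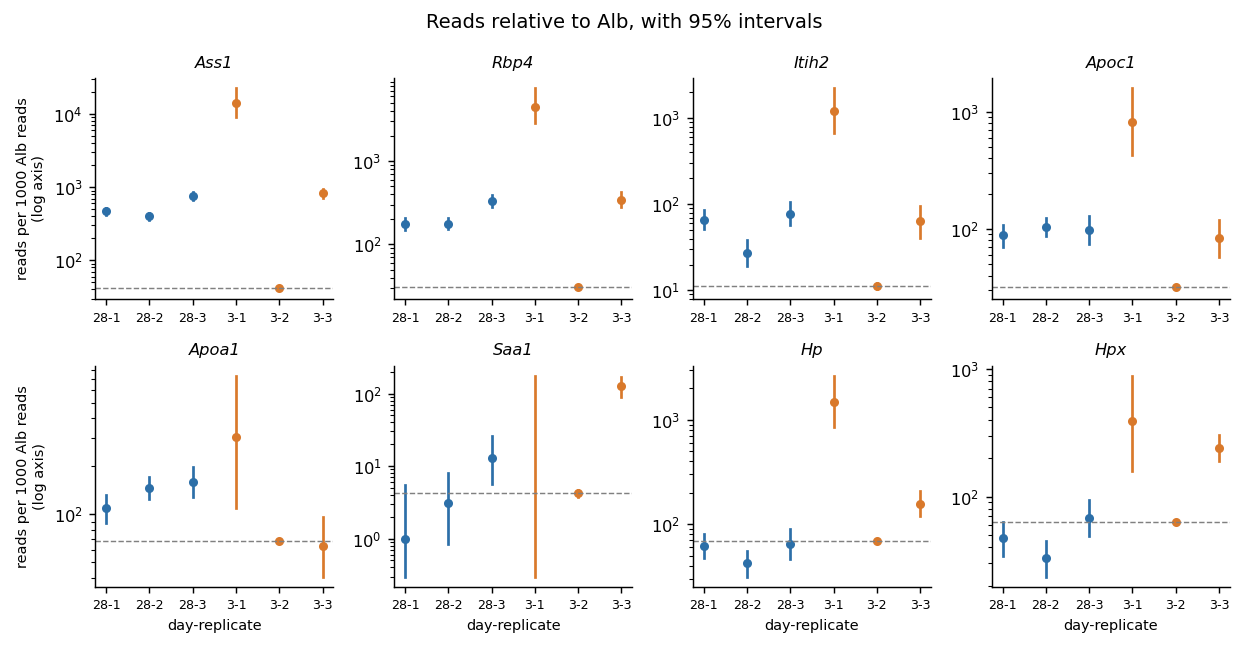
Reads per 1000 Alb reads (log axis) for 8 members, day 28 (blue) left of day 3 (orange), labelled day-replicate. Points are single libraries, vertical lines exact 95% intervals for counting error (lower ends below 0.3 are not drawn, and a line with no point is a gene with 0 reads), and the dashed line is the day 3 replicate 2 value; Ass1 runs from 42.1 in day 3 replicate 2 to 14000 in day 3 replicate 1.

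Further hepatocyte genes outside the 53 were also highest in day 3 replicate 2. Like the members, the further lists were chosen with earlier results of these data known, so their counts are a description. Of 60 such genes, all 60 were highest in day 3 replicate 2 and 51 were more than 10-fold above the next library. Their median level in the day 28 libraries was 1.95%, 2.35% and 1.40% of that in day 3 replicate 2, against 0 and 1.38% in day 3 replicates 1 and 3. Their summed level was 3159, 3156 and 2912 normalized counts at day 28, against 3814, 34000 and 3052 at day 3, so that day 3 replicate 1 was the second highest in sum. Itih3, Aldh1l1, Fah and Hsd11b1 were read in every library, the first at 855 or more reads and Fah at 279 or more. Aldh1l1, an astrocyte enzyme as well, had 967, 983 and 847 reads at day 28, against 1401, 2116 and 770 at day 3. Of 12 hepatocyte transcription factors, 11 were highest in day 3 replicate 2 and 5 were more than 10-fold above the next library. Prox1, also a brain gene, had 283, 516 and 542 normalized counts at day 28, against 551, 624 and 505 at day 3. Hnf4a, one of the 5, had 1, 4 and 7 reads at day 28, against 0, 373 and 1 at day 3.

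Of 12 markers of other liver cells, 7 were highest in day 3 replicate 2, as were 3 of 10 intestine and pancreas markers and 6 of 12 mammary, adipose and muscle markers. Of the 3, Fabp2 and Pnlip had 7 and 5 reads there. None of the 6 was a mammary gene: Cfd and Plin1 had 1 and 4 reads, and Acta1 had 69, against 35 to 61 in the other libraries. The share of all genes highest in that library was not counted, here or for the hepatocyte lists. Clec4f, a marker of Kupffer cells, the macrophages of liver, had 133 reads in day 3 replicate 2 and 0 in each of the other 5 libraries. Vsig4, a second Kupffer marker, had 26 there and 0 in each of the others. Not all of the list went this way: Marco, a macrophage receptor, had 1, 0 and 0 reads at day 28, against 62, 10 and 0 at day 3, and Lrat, a stellate cell enzyme, had 2, 2 and 2 reads at day 28, against 11, 0 and 0 at day 3. Of the 8 kidney markers, 0 were highest in day 3 replicate 2. Milk protein genes Csn2, Csn3 and Wap and the fat cell hormone Adipoq had 0 reads in all 6 libraries, as did the pancreas genes Cela2a, Cela3b, Ctrb1 and Prss2. Apoa4, an apolipoprotein of intestine that mouse liver also makes, had 15, 1 and 1 reads at day 28, against 0, 202 and 1 at day 3.

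Across the table, 12744 genes had at least 50 normalized counts in day 3 replicate 2. Of these, 247 (1.94%) were at least 10-fold above the highest other library after adding 1 to both, of which 47 were members, 58 stood on the other lists and 142 were outside all lists. The ratio itself picked the genes, so nothing is read from their size. Outside the lists the largest ratios belonged to Sult3a1, a sulfotransferase, and Cyp3a41a and Cyp2c39, cytochrome P450 genes, Sult3a1 and Cyp3a41a being known as female-biased in mouse liver. Sult3a1 had 304 reads in day 3 replicate 2 and 0 in each of the other 5 libraries. Cyp3a41a had 1, 1 and 0 reads at day 28, against 1, 564 and 0 at day 3. At its day 3 replicate 2 ratio to Alb it would have had 8.77, 10.9 and 5.26 reads in the day 28 libraries. Cyp2a4 had 1, 8 and 1 reads at day 28, against 0, 1254 and 0 at day 3, where that ratio gives 19.5, 24.3 and 11.7 reads at day 28. These genes were thus lower relative to Alb at day 28 than in day 3 replicate 2, as their selection favours.

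Day 28 was compared with day 3 by limma on log2(normalized count + 1), fitted over all genes with a mean of at least 10 normalized counts. Of the 53 members 51 passed that filter, all but Mup20 and Vnn1, and 11 of these passed only through day 3 replicate 2, since 40 reached that mean over the other 5 libraries. With all 6 libraries 0 of the 51 changed at an adjusted p under 0.05, against 0.192% of the 16162 genes tested, and 0 reached an unadjusted p under 0.05, against 13.4% of all genes. With limma-voom on the recovered reads 0 changed as well, and 0 had an unadjusted p under 0.05, against 13.1% of all genes. The library that chose the members is part of this contrast, so nothing is read from it. The smallest p was that of Saa2 (log2 difference -3.33, SE 1.64, limma adjusted p = 0.419), with 0.998, 0 and 0 normalized counts at day 28, against 0, 59.6 and 32.9 at day 3. Alb had a log2 difference of -0.02, and the median over the 51 was -0.73, against -0.009 over all genes tested. That median was -2.91 without day 3 replicate 1, with 51 of 51 members negative, and -1.22 without day 3 replicate 3.

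Without day 3 replicate 2, the differences had the other sign. The other 5 libraries were the comparison when the members were chosen, so this fit is not independent of the choice. The 51 members then had a median log2 difference of 1.64, against -0.001 over all genes, with 49 positive and 2 negative. Over the 5 libraries 40 of the 53 members reached a mean of 10 normalized counts, and in a fit with that filter their median was 1.93, with 39 positive. In both fits 0 members changed at an adjusted p under 0.05, against 0.0124% and 0.0125% of all genes, while 15 of the 51 and 14 of the 40 had an unadjusted p under 0.05, against 9.48% and 9.64% of all genes tested. Of the 40, 17 had all 3 day 28 libraries above both day 3 libraries, against 12.9% of the 15986 genes tested. Genes of the list are not independent of one another, so these counts do not stand for that many separate results. The spread between day 3 replicates 1 and 3, with Alb at 21.1 and 477 normalized counts, is part of the error of each of these differences.

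Single members without day 3 replicate 2 ranged widely. Apoa1 had 111, 166 and 92.9 normalized counts at day 28, against 6.41 and 30.4 at day 3, which is a log2 difference of 2.98 (SE 0.60, limma adjusted p = 0.237). It was higher in 3 of 3 day 28 libraries and did not pass. Adh1 had 39.9, 32.1 and 23.7 at day 28, against 0.916 and 4.87 at day 3 (log2 3.27, SE 0.66, limma adjusted p = 0.237). Uox had a log2 difference of 3.26 (limma adjusted p = 0.249) and Fabp1 one of 3.85 (limma adjusted p = 0.385), and for both the day 28 libraries were all higher. Alb had a log2 difference of 3.10 (SE 1.06, limma adjusted p = 0.421). Ass1, the even member, had 477, 454 and 438 normalized counts at day 28, against 295 and 392 at day 3 (log2 0.42, SE 0.16, limma adjusted p = 0.46). Rbp4 had 182, 203 and 194 at day 28, against 95.3 and 164 at day 3 (log2 0.62, SE 0.26, limma adjusted p = 0.509). Hp was level, with a log2 difference of 0.01, and the 2 members with negative differences were Saa1 (log2 -0.86) and Saa2 (log2 -2.21), both high in day 3 replicate 3.

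**Figure D4:**
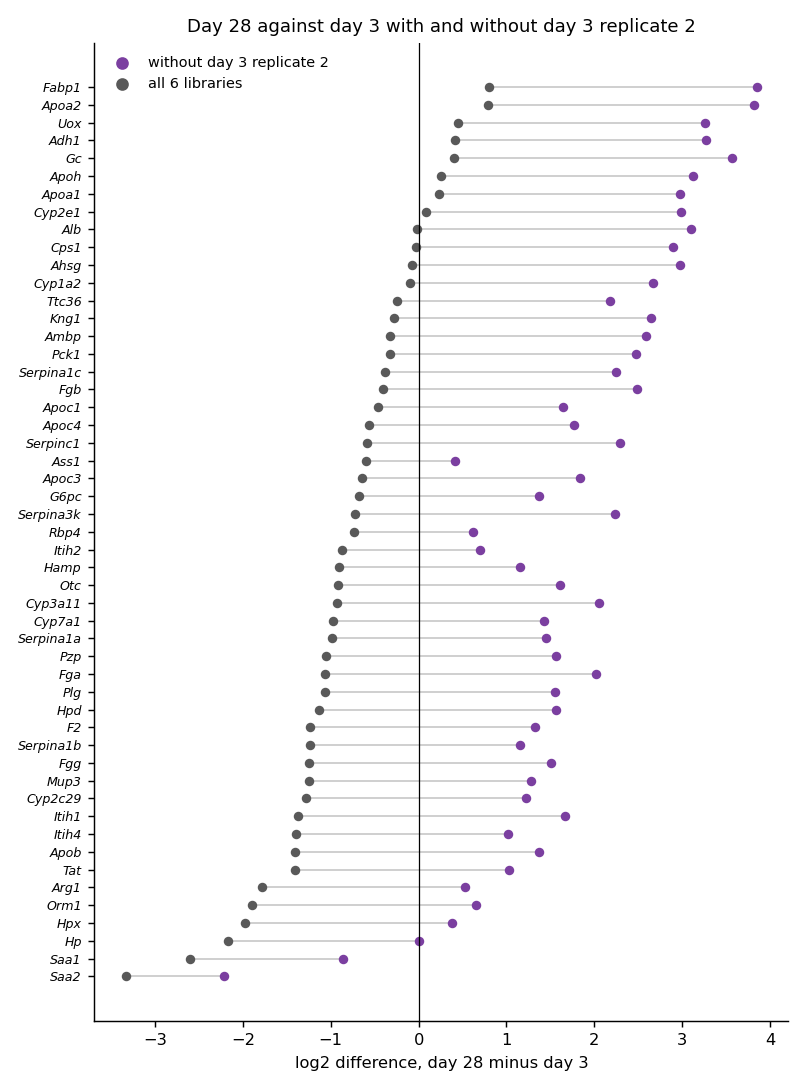
Log2 difference of day 28 minus day 3 for the 51 members tested, from limma on all 6 libraries (grey) and without day 3 replicate 2 (purple). Each row is a gene; the median is -0.73 with that library and 1.64 without it, and no member passed an adjusted p of 0.05 in either fit.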

How the data were processed

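The authors deposited log2 values of normalized counts plus 1. The genome build was GRCm39, per the submitters' processing notes; aligner, counter and annotation are not given in the sources used here. After the log2 was undone, 100% of values were whole multiples of a library's smallest step (tolerance 0.001 reads), which gave back the reads. A count of 0 allows up to 3 reads. Intervals and this floor cover counting error only. Symbols came from GENCODE M21. Because the deposited unit is log2, limma 3.58.1 (R 4.3.3) compared day 28 with day 3 on log2(normalized count + 1), which understates changes of low genes. Genes with a mean of at least 10 were tested, two-sided, with an intensity trend and Benjamini-Hochberg adjustment over all of them. The fit was tested on simulated data. Exact binomial intervals used scipy 1.17.1 and figures matplotlib 3.10.9. The members and lists were chosen with earlier results of these data known. The rule for named genes took Alb, the member of highest mean in each role list, up to 3 members per library above their day 3 replicate 2 ratio to Alb, up to 4 genes of highest mean per further list, and genes outside the lists of largest ratio. Every other gene was singled out with its values in view. The planned correlation with Alb over 6 libraries is not given, since 1 library sets it. Alternatives covered pseudocount, filter, scaling, variance model, voom, replicate block and leaving out each library; removing day 3 replicate 2 with the filter over the other 5 libraries was added after seeing the data.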

Additional observations from a re-analysis of the deposited data

How the results depend on the processing

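The count of member genes past the threshold was 0 under every alternative run. The median log2 difference of the members, -0.73 with all libraries, ran from -2.91 to 1.64 with single libraries left out (positive in 1 case, without day 3 replicate 2) and was 1.93 with day 3 replicate 2 removed and the filter over 5 libraries. The count of all genes past the threshold, 31, was 68 with no filter, 3 without an intensity trend, 0 with voom, 0 with the replicate block, 2 with day 3 replicate 2 removed and the filter over 5 libraries, and 1 to 623 with single libraries left out. Correlations of same-numbered deviations were 0.0345, 0.131 and -0.0621. Day 28 replicates 1 and 2 correlated best with the day 3 replicate of their own number, and day 28 replicate 3 with day 3 replicate 1 (0.16). With so few libraries per group, these values cannot settle whether the replicate numbers pair the samples. Of the named members, sign changes with the filter over 5 libraries and day 3 replicate 2 removed were to 3.10 for Alb, 2.49 for Fgb, 2.24 for Serpina3k, 1.28 for Mup3 and 0.42 for Ass1; Alb was 0.05 with voom and Cyp2e1 -0.42 with a pseudocount of 5. With single libraries left out, log2 differences ranged as follows: Alb -2.69 to 3.10, Fgb -3.07 to 2.49, Apoa1 -1.66 to 2.98, Serpina3k -3.84 to 2.24, Hamp -2.56 to 1.15, Mup3 -3.11 to 1.28, Cyp2e1 -2.58 to 2.99, Ass1 -1.21 to 0.42 and Fabp1 -1.88 to 3.85; the smallest adjusted p over all alternatives of these members was 0.189. Without Alb, the share of reads in the members was 0.0182%, 0.0189% and 0.0135% in day 28 replicates 1 to 3, and 0.780% and 0.0141% in day 3 replicates 2 and 3. Without the inducible acute phase genes (Saa1, Saa2, Hp, Orm1 and Hamp) it was 1.21% and 0.0161% in day 3 replicates 2 and 3. In day 3 replicate 1, 29 members had at least 1 read, 15 at least 3 and 6 at least 10. The cause of these changes was not tested. Counting error limits members with few reads, most of all in day 3 replicate 1. That library was not the shallowest, at 15033955 reads in total against 11958137 in day 3 replicate 3.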
